A study of Arabidopsis thaliana with 6 samples.

Results

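AT1G15540 and 6 related genes of Arabidopsis thaliana, all listed as loci of 2-oxoglutarate and iron dependent dioxygenases, are described here in roots supplied with thiosulfate or sulfate. The other 6 are AT1G28030, AT1G52790, AT1G52800, AT1G52810, AT1G52820 and AT1G80320. AT1G15540 was chosen by its measured difference between the sulfur sources on these same arrays, so its values are given as a description with no test. The other 6 were listed for their relation to it, with earlier results of these data known. All 7 were measured, each by 1 row, among 16548 genes that could be named and tested.

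Roots of Col-0 wild-type plants, the common laboratory accession, were taken at an age of 8 weeks from hydroponic culture under short days. In both groups the MGRL medium had its sulfate replaced by chloride, so that the added salt was the sulfur source. The thiosulfate group (3 arrays) received 150 µM sodium thiosulfate and the sulfate group (3 arrays) received 300 µM sodium sulfate. Values are log2 expression summaries from 1-colour Affymetrix arrays, and the comparison concerns root transcript levels under the 2 sulfur sources. The titles call the replicates biological but name no separate cultures, so every p-value measures only the spread between these samples.

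Dioxygenases of this superfamily carry a ferrous iron in the active site. Most use molecular oxygen and 2-oxoglutarate to oxidise a small molecule or a protein residue, releasing succinate and carbon dioxide. In plants the superfamily takes part in the synthesis and breakdown of hormones such as gibberellin, auxin and ethylene. It also takes part in the making of flavonoids, coumarins and the side chains of glucosinolates, which are sulfur-rich defence compounds. The sources used here name no substrate for any of the 7 genes. AT1G52790, AT1G52800, AT1G52810 and AT1G52820 stand next to each other on chromosome 1 in the RefSeq annotation. AT1G15540 stands beside GA3OX1, and AT1G80320 stands beside GA3OX4, both genes of gibberellin 3-oxidases, the enzymes that make active gibberellins.

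The median of all rows lay between 2.35 and 2.48 on the 6 arrays, and the correlation between arrays over the genes tested lay between 0.974 and 0.983. Precision is limited by the number of arrays. Of the markers listed for other or particular cells, 2 of 7 were measured for root hairs (EXPA7 and EXPA18, both expansins), 2 of 11 for green shoot tissue (RCA and LHCB4.1) and 2 of 4 for dividing cells (AUR1 and AUR2, both Aurora kinases). The thiosulfate and sulfate arrays overlapped for all 6 of these. In whole roots, fewer cells of a type and less RNA per cell cannot be told apart. Probe sequences were not used here, so whether a probe set reads more than 1 of these related genes was not tested.

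AT1G15540 was at 4.15, 3.91 and 4.42 (log2) on the thiosulfate arrays, against 2.29, 2.33 and 1.87 on the sulfate arrays. The lowest thiosulfate array lay 1.58 above the highest sulfate array, a gap wider than the range within either group. The group means were 4.16 ± 0.26 in thiosulfate and 2.16 ± 0.26 in sulfate (SD, n = 3 each), and the difference was 1.999. This was the largest rise of a mean among the 16548 genes, and it is the contrast by which the gene was chosen.

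**Figure D1:**
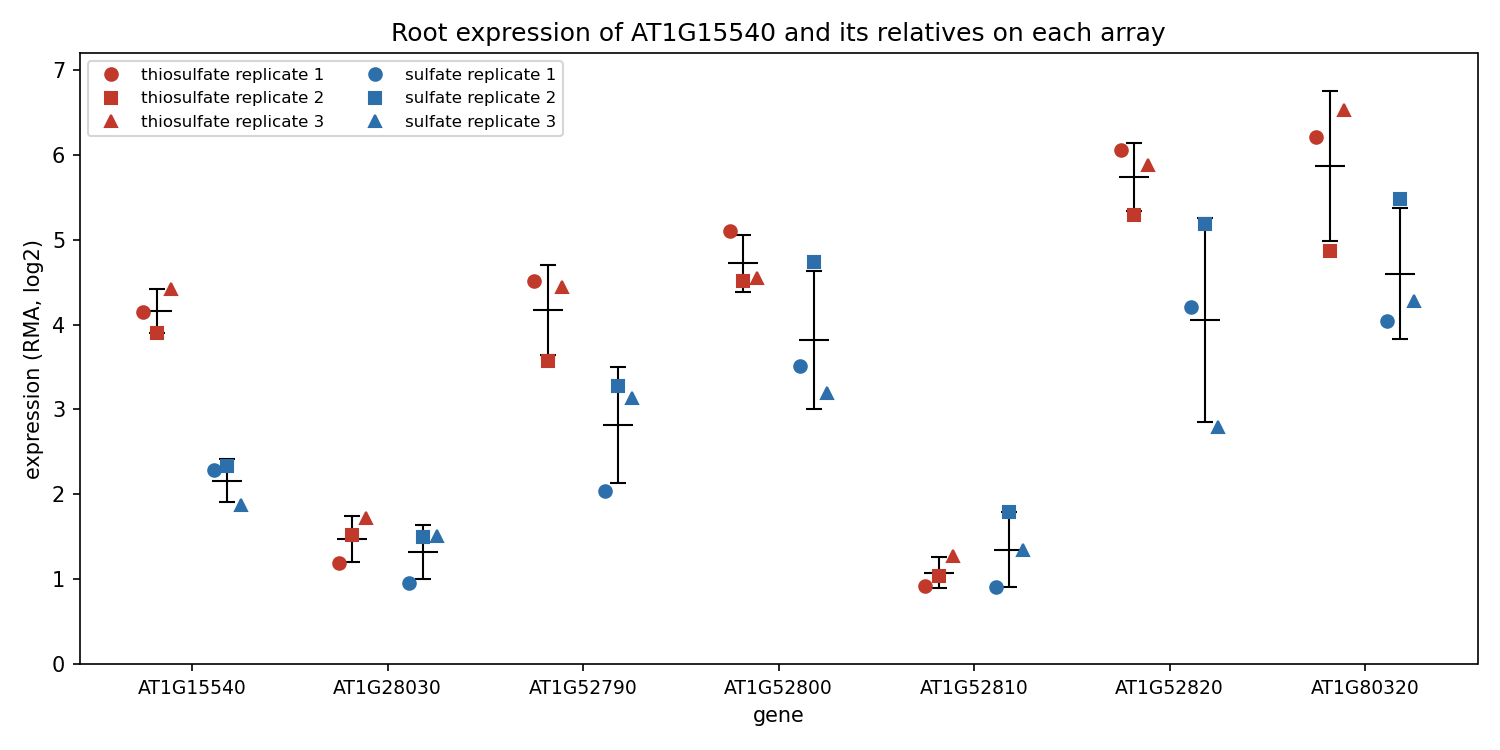
Expression (RMA, log2 scale) of the 7 dioxygenase genes on each array, with thiosulfate arrays in red and sulfate arrays in blue. Points are single arrays, the horizontal bars are group means and the error bars are SDs (n = 3). Groups lie apart for AT1G15540, AT1G52790 and AT1G52820 and overlap for the other 4 genes.

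Of the 6 relatives, 5 had a higher mean in thiosulfate, as did 47.1% of all genes, and 1 had a lower one. None passed a limma adjusted p of 0.05 over all genes, a threshold that 0.0121% of the genes tested passed. At an unadjusted limma p under 0.05, 4 of the 6 were higher and 0 were lower, a count chosen after seeing the data. Of all genes 5.39% were higher at that threshold and 4.64% were lower. The median difference of the 6 was 1.09 on the log2 scale, beside -0.016 over all genes tested. Since the 6 were listed with earlier results of these data known, these counts and the median are descriptions only. The count of 4 fell to 2 when thiosulfate replicate 1, sulfate replicate 1 or sulfate replicate 3 was left out, and to 3 without thiosulfate replicate 3. It was 3 with every row tested and 0 in a test with no variance shared between genes.

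AT1G52820, the last of the adjacent genes, had the largest difference of the relatives. It was at 6.05, 5.29 and 5.88 on the thiosulfate arrays, against 4.20, 5.18 and 2.79 on the sulfate arrays. The groups did not overlap, but sulfate replicate 2 came within 0.11 of the lowest thiosulfate array, and the sulfate arrays ranged widely. Means were 5.74 ± 0.40 in thiosulfate and 4.06 ± 1.20 in sulfate (SD, n = 3 each). The difference of 1.68 (SE 0.50, 95% interval 0.55 to 2.81, limma adjusted p = 0.32) was the third largest in the upward direction among all genes. Without sulfate replicate 3, the lowest array, it was 1.05.

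AT1G52790, at the other end of the adjacent run, also had groups that did not overlap. Its thiosulfate arrays stood at 4.51, 3.57 and 4.44, against 2.04, 3.28 and 3.13 on the sulfate arrays. Thiosulfate replicate 2 was the nearest to the sulfate group, at 0.29 above its highest array, and sulfate replicate 1 was the lowest array. The mean was 4.17 ± 0.53 in thiosulfate and 2.82 ± 0.68 in sulfate (SD, n = 3 each), a difference of 1.36 (SE 0.35, 95% interval 0.56 to 2.15, limma adjusted p = 0.31). Groups that do not overlap, with thiosulfate the higher, were seen in 2 of the 6 relatives and in 7.11% of all genes.

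AT1G52800, the second gene of the run, gave 5.11, 4.51 and 4.55 on the thiosulfate arrays, against 3.52, 4.74 and 3.20 on the sulfate arrays. Sulfate replicate 2 lay above thiosulfate replicates 2 and 3, while the other sulfate arrays lay below the whole thiosulfate group. Means were 4.72 ± 0.33 in thiosulfate and 3.82 ± 0.82 in sulfate (SD, n = 3 each), and the difference was 0.90 (SE 0.36, 95% interval 0.087 to 1.72, limma adjusted p = 0.45). That value was 1.37 without sulfate replicate 2 and 0.59 without sulfate replicate 3, so single sulfate arrays moved it by more than 1.5 times.

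AT1G52810, between them, did not share this direction. It was at 0.92, 1.04 and 1.27 on the thiosulfate arrays, against 0.91, 1.79 and 1.34 on the sulfate arrays, with overlapping groups. Its difference was -0.27 (SE 0.22, 95% interval -0.78 to 0.23, limma adjusted p = 0.73). The gene was dim, since only 21.2% of the genes tested had a lower mean. Without sulfate replicate 2 the difference was -0.049, and without sulfate replicate 1 it was -0.49. No detection limit was available at this level.

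AT1G80320, which lies apart from the run, was at 6.21, 4.87 and 6.53 on the thiosulfate arrays, against 4.04, 5.48 and 4.28 on the sulfate arrays. Thiosulfate replicate 2 lay below sulfate replicate 2, so the groups overlapped, while the other thiosulfate arrays lay above every sulfate array. Means were 5.87 ± 0.88 in thiosulfate and 4.60 ± 0.77 in sulfate (SD, n = 3 each), a difference of 1.27 (SE 0.47, 95% interval 0.21 to 2.33, limma adjusted p = 0.42). A non-coding RNA locus, AT1G80325, overlaps it in the annotation, which gives no strand here, so signal from the 2 loci cannot be told apart.

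AT1G28030 was dim as well, with 1.19, 1.52 and 1.73 on the thiosulfate arrays, against 0.96, 1.50 and 1.51 on the sulfate arrays. The groups overlapped, and 29.0% of the genes tested had a lower mean. The difference was 0.16 (SE 0.21, 95% interval -0.31 to 0.62, limma adjusted p = 0.84), and it turned to -0.025 without sulfate replicate 1.

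**Figure D2:**
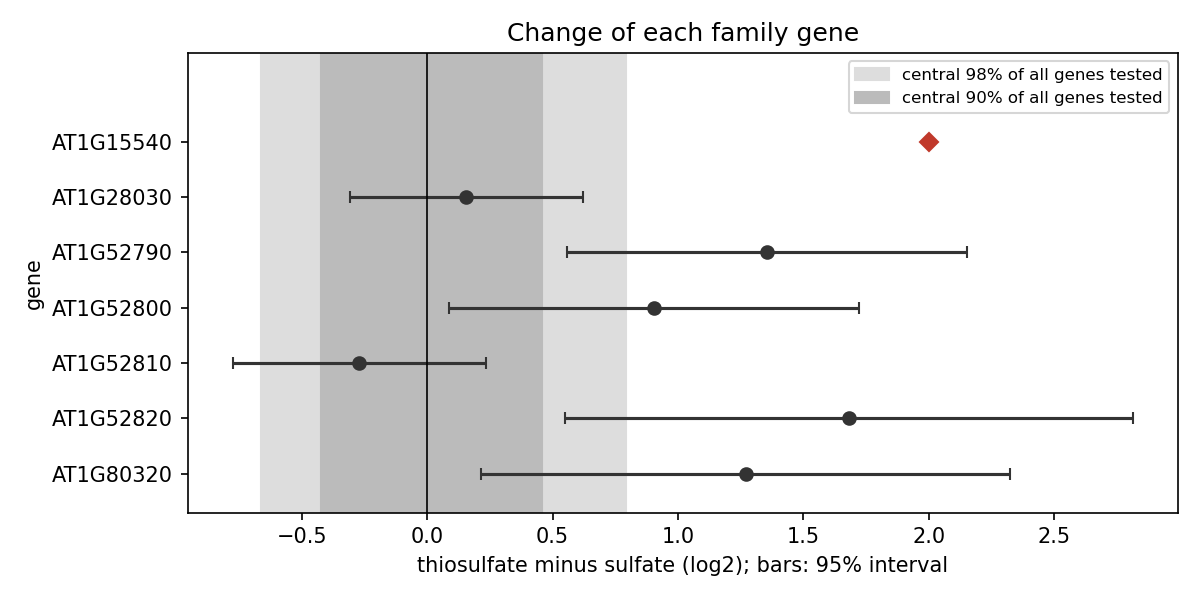
Thiosulfate minus sulfate (log2) for each of the 7 genes, as points, with 95% intervals from the limma fit over all genes for the 6 relatives. AT1G15540, chosen by this contrast, is a red diamond without an interval. Shaded bands hold the central 90% (-0.42 to 0.46) and 98% (-0.66 to 0.79) of the differences of all 16548 genes. AT1G15540, AT1G52790, AT1G52800, AT1G52820 and AT1G80320 lie to the right of both bands, and AT1G28030 and AT1G52810 lie inside the narrower one.

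By listed level the genes fall into different parts of the array's range. AT1G28030 and AT1G52810 lay low, above 29.0% and 21.2% of the genes tested. The mean of AT1G15540 over the 6 arrays exceeded that of 60.8% of genes, and for AT1G52790, AT1G52800, AT1G52820 and AT1G80320 the share was 64.5%, 73.7%, 81.3% and 85.1%. Probe sets differ in how strongly they bind, so these places are no order of transcript abundance.

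The 7 genes differed in how much they varied within a group. The pooled SD within the groups was 0.26 for AT1G15540, larger than that of 65.1% of the genes tested, beside a median of 0.21. It was 0.90 for AT1G52820 and 0.83 for AT1G80320, in both cases larger than that of 99.8% of genes. AT1G52800 had 0.62 and AT1G52790 had 0.61, larger than that of 98.8% and 98.6% of genes. The difference between groups was 7.77 times this SD for AT1G15540, which was chosen by that difference, so the ratio is only a description. For these 4 relatives the difference was 1.45 to 2.23 times the SD. A rank by size of difference takes no account of this spread.

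For 4 of the relatives the spread within groups partly followed the arrays. AT1G28030 and AT1G52810 differed from them in the thiosulfate group, with replicate 1 as their lowest array. In the sulfate group AT1G52810 was like the 4, with replicate 2 as its highest array. Sulfate replicate 2 was the highest sulfate array for all 4 of AT1G52790, AT1G52800, AT1G52820 and AT1G80320, on average 0.85 above the sulfate mean of each gene. The lowest sulfate array was replicate 1 for 2 of them and replicate 3 for 2. Thiosulfate replicate 2 was the lowest thiosulfate array for all 4, on average 0.57 below the thiosulfate mean. AT1G15540 had the same highest sulfate array and lowest thiosulfate array, but its highest and lowest sulfate arrays differed by far less. The median of all genes was 2.38 on thiosulfate replicate 2, between the other thiosulfate arrays at 2.36 and 2.39. On sulfate replicate 2 it was 2.39, the highest of the sulfate arrays, which ran from 2.34 to 2.39. What these arrays had in common was not tested.

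After the group means were removed, the values of AT1G52800 and AT1G52820 correlated at r = 0.88 over the 6 arrays, and those of AT1G52790 and AT1G80320 at r = 0.82. The 6 pairs of these 4 genes ran from 0.19 to 0.88. In the same measure AT1G15540 had r = 0.79 with AT1G52820, 0.70 with AT1G80320, 0.47 with AT1G52800 and 0.17 with AT1G52790. AT1G28030 and AT1G52810, the dim pair, had r = 0.83 with each other. AT1G52810 also had r = 0.69 with AT1G52790, 0.67 with AT1G80320, 0.54 with AT1G52800 and 0.36 with AT1G52820. For AT1G28030 the values with these 4 ran from -0.15 to 0.51. These are descriptions over 6 arrays that share their normalization, and removing the group means leaves only 4 of them free.

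**Figure D3:**
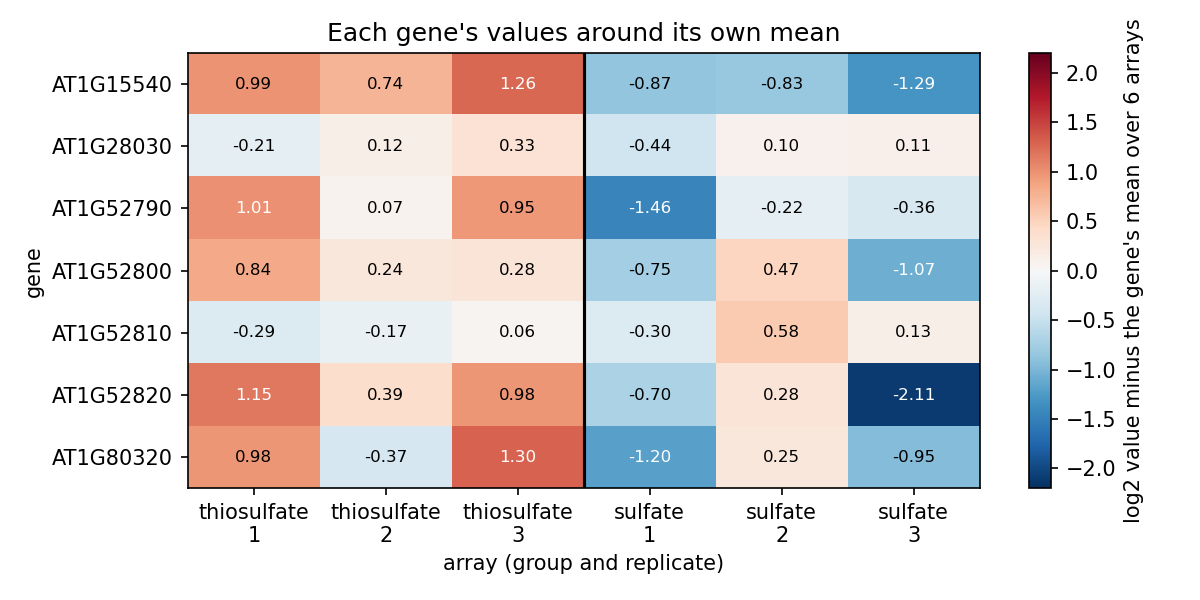
Log2 value of each gene on each array minus the gene's own mean over the 6 arrays, with thiosulfate arrays left of the line and sulfate arrays right of it. Red is above the gene's mean and blue is below it. Sulfate replicate 2 is the palest or reddest sulfate array in AT1G52790, AT1G52800, AT1G52820 and AT1G80320. Thiosulfate replicate 2 is the palest or bluest thiosulfate array in these genes. In AT1G52810 sulfate replicate 2 is the reddest sulfate array too.

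The genes whose profile over the 6 arrays was most like that of AT1G15540 were not relatives. By Pearson's r, among 735 genes with an SD over the arrays of at least 0.5, they were AT5G40030 (r = 0.99), AT5G02360 (r = 0.99), AT1G11670 (r = 0.98), AT1G75060 (r = 0.98) and GH9B8 (AT2G32990, r = 0.96), a glycosyl hydrolase. The relatives stood further down this order, with r = 0.84 and place 72 for AT1G52820, r = 0.81 and place 99 for AT1G52790, r = 0.77 and place 131 for AT1G80320, and r = 0.72 and place 167 for AT1G52800. Each profile includes the difference between the groups, by which AT1G15540 was chosen.

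AT5G40030, the nearest, stood at 3.36, 3.13 and 3.54 on the thiosulfate arrays and 2.52, 2.37 and 2.22 on the sulfate arrays. Its replicates had the same highest and lowest thiosulfate array as AT1G15540, and its difference of 0.97 was smaller. The differences of the other 4 ran from 0.95 for AT1G11670 to 1.13 for AT5G02360, and the 5 genes had limma adjusted p-values from 0.14 to 0.26. With the distance between centred profiles in place of r, 0 of these 5 genes were among the nearest 5.

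Genes next to the family members were followed where they were measured. The 3 nearest neighbours on either side of AT1G15540, GA3OX1 among them, have no named row and were not analysed here. AT1G52780, beside AT1G52790, was at 4.61, 4.53 and 4.26 on the thiosulfate arrays and 4.18, 4.20 and 4.23 on the sulfate arrays. Its groups lay apart by 0.033, and its difference of 0.26 (95% interval -0.071 to 0.60) was smaller than that of its neighbour. AT1G52825, whose annotated span overlaps that of AT1G52820, was at 3.79, 3.72 and 3.57 on the thiosulfate arrays against 3.73, 3.69 and 3.73 on the sulfate arrays. Whether the rows of AT1G52820 and AT1G52825 share signal was not tested. The difference of AT1G52825 was -0.022 (95% interval -0.33 to 0.29), and the wide spread of AT1G52820 was not seen there. AT1G28020 and AT1G28040, on either side of AT1G28030, had differences of -0.29 and 0.17 with overlapping groups.

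Other dioxygenases were taken from 12 lists with 100 entries, of which 58 were measured. None of the 58 passed a limma adjusted p of 0.05. At an unadjusted limma p under 0.05 there were 3 higher and 4 lower, beside 5.39% of all genes higher and 4.64% lower. The means of 27 lay higher and those of 31 lower, or 24 and 34 after a further quantile normalization, and 47.1% of all genes lay higher. Their median difference was -0.055, and they ran from -0.56 to 0.66. AT1G52790, AT1G52800, AT1G52820 and AT1G80320 lay beyond the highest of them. So did AT1G15540, which was chosen by this difference. The gibberellin oxidase list and the list around salicylate hydroxylation had no named row and were not analysed here.

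The AOP list includes enzymes that modify glucosinolate side chains. In it AOP3 was at 1.20, 1.31 and 1.36 on the thiosulfate arrays and 1.27, 1.58 and 0.83 on the sulfate arrays. AOP1 was at 0.72, 0.91 and 0.71 against 0.95, 0.89 and 0.92. Both were dim and had overlapping groups, with differences of 0.063 and -0.14. The auxin oxidation list gave 0.036 for AT1G14120 and -0.19 for AT1G14130, and AT1G12010 of the ACC oxidase list, the enzymes that release ethylene, gave 0.13.

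The list of the GSL-OH and ACC oxidase-like group had 15 of 16 members measured, 9 higher and 6 lower. The members with the smallest p were AT5G59540 (difference -0.40), AT1G04350 (-0.37) and AT1G03400 (0.28), with limma adjusted p-values from 0.53 to 0.61. In the list of other dioxygenases, 18 of 19 were measured. AT5G20400 was at 4.99, 4.96 and 4.88 on the thiosulfate arrays against 4.65, 4.30 and 4.30 on the sulfate arrays, a difference of 0.53 (limma adjusted p = 0.32) with groups that lay apart. AT3G46490 and AT3G50210 lay apart in the other direction, with differences of -0.56 and -0.50 (limma adjusted p = 0.32 and 0.37). These 3 had the smallest p of their list. Of its 18 measured genes, groups lay apart in 2 with thiosulfate the higher and in 2 with it the lower, beside 7.11% and 7.57% of all genes.

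Prolyl 4-hydroxylases, which modify proline residues in cell wall and other proteins, were measured for 9 of 13 listed loci, and 8 of the 9 had lower means in thiosulfate, also after each of the 2 other scalings, while 52.9% of all genes had lower means. Their median difference was -0.22, beside -0.016 over all genes. AT1G20270 was at 6.73, 6.98 and 6.69 on the thiosulfate arrays, against 7.18, 7.38 and 7.28 on the sulfate arrays, a difference of -0.48. AT4G33910 had one of -0.39 and AT3G28480 one of -0.30. These 3 had the smallest p of the list, with limma adjusted p-values from 0.34 to 0.51. They were also the 3 of the 9 whose groups lay apart with thiosulfate the lower, beside 7.57% of all genes. At an unadjusted limma p under 0.05, 2 of the 9 were lower and 0 were higher, beside 4.64% and 5.39% of all genes.

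The remaining lists held few measured genes. Of the jasmonate oxidase list, AT3G11180, AT5G05600, JRG21 (AT3G55970) and AT2G38240 had differences of 0.037, -0.0030, -0.17 and 0.00027, and the signs of AT5G05600 and AT2G38240 each turned under 1 other scaling. In the SRG1-like list AT1G17010, AT1G78550, AT4G25300 and AT4G25310 had differences of 0.095, -0.089, 0.17 and 0.0068, and that of AT4G25310 turned negative under both other scalings. AT4G22870 of the flavonoid list had one of -0.23. AT1G55290 of the coumarin list had one of -0.31, and AT3G12900 of the same list had one of -0.41, with thiosulfate replicate 3 at 4.87 while the other thiosulfate arrays were at 7.001 and 7.03.

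**Figure D4:**
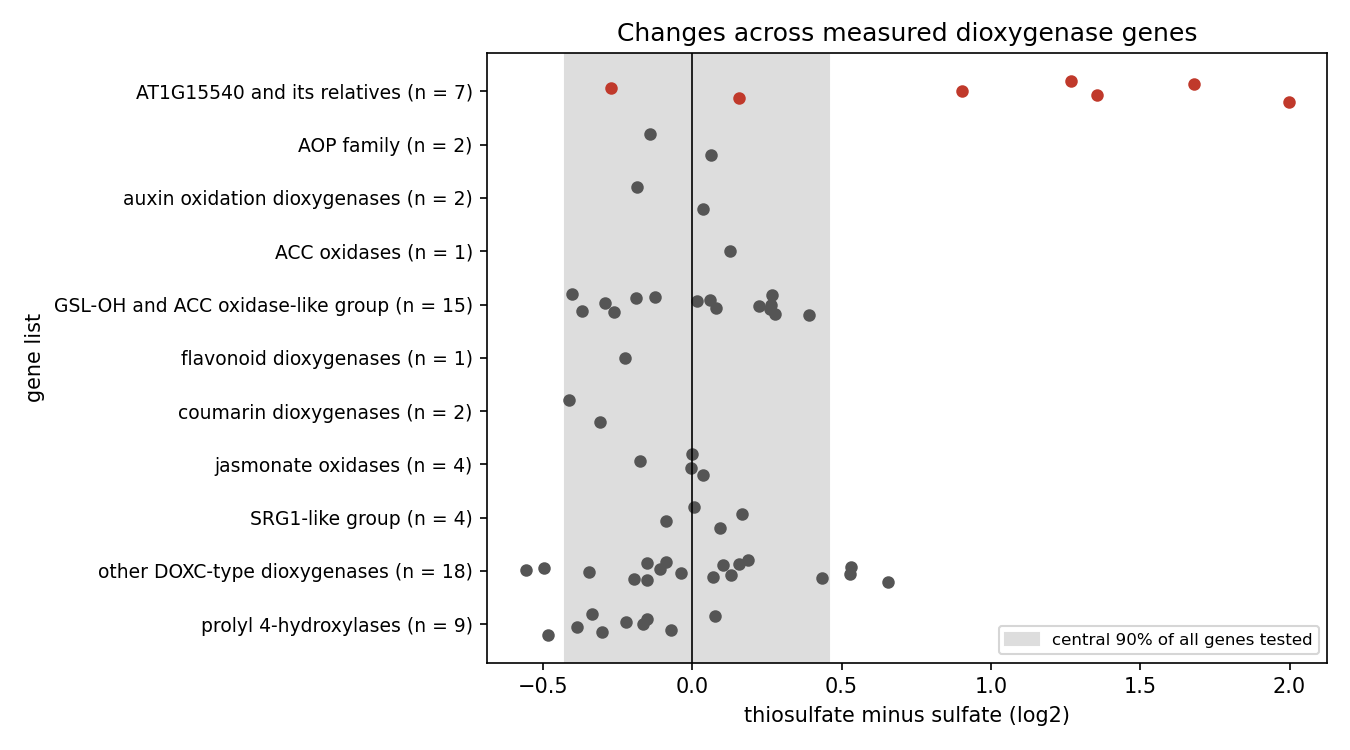
Thiosulfate minus sulfate (log2) for each measured dioxygenase gene, 1 point per gene and 1 row per list, with AT1G15540 and its relatives in red. The grey band holds the central 90% of all genes tested (-0.42 to 0.46). Of the 7 red points 5 lie to the right of every grey point, and 1 of these is AT1G15540, which was chosen by this difference.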

How the data were processed

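Per the submitters' processing notes, the authors made the deposited log2 values with RMA in Transcriptome Analysis Console 4.0. The sources used here do not give the RMA variant, array build, filters or scan batches, so neither background correction nor batches could be examined, and no detection limit was used. Rows were named through the platform's probe table, which gives 1 gene for 16722 of 38408 rows. Symbols and gene order came from RefSeq's TAIR10.1 table. The highest-mean row stood for each gene.

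limma 3.58.1 (R 4.3.3) fitted a group term with empirical Bayes variances, two-sided, with Benjamini-Hochberg adjustment over 16548 genes and a threshold of 0.05. The fit was tested on simulated data. Figures used matplotlib 3.10.9 under Python 3.11.15 with pandas 2.3.3. Differences are thiosulfate minus sulfate.

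Members and lists were chosen with earlier results of these data known, the lists from textbook knowledge. Named were all 7 members, their measured neighbours, the 5 most alike genes, and per list all measured genes (the 3 with the smallest p where over 4 were measured). Replicate numbers were not taken to pair arrays. Alternatives varied scaling, filters, rows, variance model, replicate block and arrays left out. Sequences and protein identities were not used here.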

Additional observations from a re-analysis of the deposited data

How the results depend on the processing

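The difference of AT1G15540, by which it was chosen, moved by less than the SD between replicates in all 16 alternatives, between 1.85 and 2.13. Filters, rows, the variance model and the replicate block cannot move it, since they leave its mean difference unchanged. Only other scalings, array weights and left-out arrays could. It ran from 1.93 to 1.999 with all arrays kept. No relative passed a limma adjusted p of 0.05 in any alternative that kept it, with adjusted p-values from 0.22 to 0.98, and the difference of AT1G28030 ran from -0.025 to 0.30 with arrays left out, turning without sulfate replicate 1. The stricter filter on dim genes (8274 kept) removed AT1G28030 and AT1G52810, and the milder one (12411 kept) removed AT1G52810.

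Over all genes, 2 were called by limma. With the stricter filter 1 was called. With every row tested 0 were (3502 rows at an unadjusted p under 0.05), and with no shared variance 0 were (1297 genes). With a replicate block 0 genes were called (1717 at an unadjusted p under 0.05). Deviations of same-numbered arrays had correlations of 0.056, -0.025 and -0.032, and for sulfate replicates 2 and 3 the best match was a different number, so the numbers are not taken as pairs. Without thiosulfate replicate 2 there were 2 called genes, and leaving out any other single array gave 0. Of the wider lists 0 were called in any of the alternatives, with 6 to 9 at an unadjusted p under 0.05.

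The count of relatives higher at an unadjusted p under 0.05, an alternative count chosen after seeing the data, was 4. It ran from 2 to 4 with arrays left out, was 3 with every row tested and was 0 with no shared variance. Of the 5 genes most like AT1G15540, 0 were found again by distance and 2 without a filter on flat genes. Alternatives for protein identity were not run, since no sequences were used here. Signal over background is unknown, which limits what AT1G28030 and AT1G52810 can show.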

Other observations

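Among the wider dioxygenase lists, 2 genes named after their values were seen had the largest differences upward. AT2G36690 was at 6.45, 5.50 and 6.44 on the thiosulfate arrays, against 5.45, 5.67 and 5.30 on the sulfate arrays, a difference of 0.66 (limma adjusted p = 0.43). AT3G49630 was at 3.49, 2.94 and 4.06 on the thiosulfate arrays, against 3.13, 3.05 and 2.72 on the sulfate arrays, a difference of 0.53 (limma adjusted p = 0.54). In both genes thiosulfate replicate 2 was the lowest thiosulfate array and lay within the sulfate range, as it did for AT1G80320.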
